A study of Homo sapiens with 15 samples.

Results

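Saos2 cells, a human osteosarcoma line, were compared after 24 h with DDR or with its vehicle. DDR is (−)-didesmethylrocaglamide, a relative of rocaglamide (Roc). The DDR group received 7 nM, its growth IC50 in this line, and the control group received 0.04% DMSO. Both groups were unmodified cells grown in high-glucose DMEM with fetal bovine serum. The comparison holds 6 of the 15 libraries of the series, 3 biological replicates per group, and covers all genes. Nothing further is stated about how the replicate cultures were set up, so p-values measure the spread between these cultures of a single line. A Roc group of 3 Saos2 libraries helped to estimate the spread between replicates and is not described. MG-63, another osteosarcoma line given 5 nM DDR for 24 h (2 libraries per group), is used only to show where the response of Saos2 differs.

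Rocaglates bind the RNA helicase eIF4A, which unwinds the 5′ untranslated region (UTR) of an mRNA so that the ribosome can scan it. They clamp the helicase onto purine-rich RNA, and the clamped complex blocks scanning. The libraries measure mRNA level and say nothing of how well each mRNA is translated.

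The 8 osteoblast and osteosarcoma markers checked sum to between 2999 and 3172 CPM (counts per 1000000 of the library total) with DMSO and between 3117 and 3535 with DDR. All but BGLAP reach 1 CPM. Markers of other cell types are low: KRT5, KRT14 and KRT19 of epithelium, CD3E and HBB of blood, CDH5 and KDR of endothelium and 4 of 5 osteoclast markers have no count, and the epithelial sum of 16.0 to 23.2 CPM is EPCAM. The osteoclast marker with counts, CTSK, has 5.50 to 8.61 CPM with DMSO and 8.84 to 10.9 with DDR. VWF of endothelium reaches 1.46 CPM in DMSO replicate 1. The neuronal sum, mostly SYT1, is 17.8 to 19.9 CPM with DMSO and 23.7 to 26.3 with DDR. Total counts run from 28838167 to 39787425 per library. DDR replicate 2 stands apart, with a chi-square per gene of 21.5 and 25.8 against the other DDR libraries and 8.50 between those, and so does DMSO replicate 3, with 21.3 and 17.3 against the other DMSO libraries and 11.5 between those. Libraries of a group also differ in how counts depend on the GC content of a transcript. Each library's deviation from its group mean was set against GC content across 10297 protein-coding genes of at least 5 CPM. Spearman coefficients were 0.56, 0.18 and −0.61 with DMSO and −0.25, 0.66 and −0.65 with DDR. Being centered within each group, they do not compare DMSO with DDR. Counts of genes and of list members called in Saos2 were therefore also made without each library, and with the trend in GC content and transcript length removed from each library, an alternative chosen after seeing the data. Counts between the lines were made without each library, and not with that trend removed.

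DDR changed the level of 2512 of the 17593 genes tested. Of these, 1328 rose and 1184 fell, which is 7.55% and 6.73% of all genes tested and 14.3% together. A gene was called when its log2 change, DDR over DMSO, reached 0.5 in size and its adjusted p in edgeR's quasi-likelihood test was at most 0.05. Most changes were modest: the median size among called genes was 0.72, or 1.65-fold, and 262 genes rose and 293 fell at least 2-fold. Among the 13168 protein-coding genes, 1155 rose (8.77%) and 1096 fell (8.32%). DMSO and DDR libraries do not overlap in 42.8% of protein-coding genes and 36.7% of all genes, so separate groups alone say little. The share of called genes that rose was 52.9%, and it was 44.4% when libraries were scaled by total counts alone. CPM from here on are scaled by TMM, and changes are log2 ± SE with n = 3 libraries per group.

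**Figure D1:**
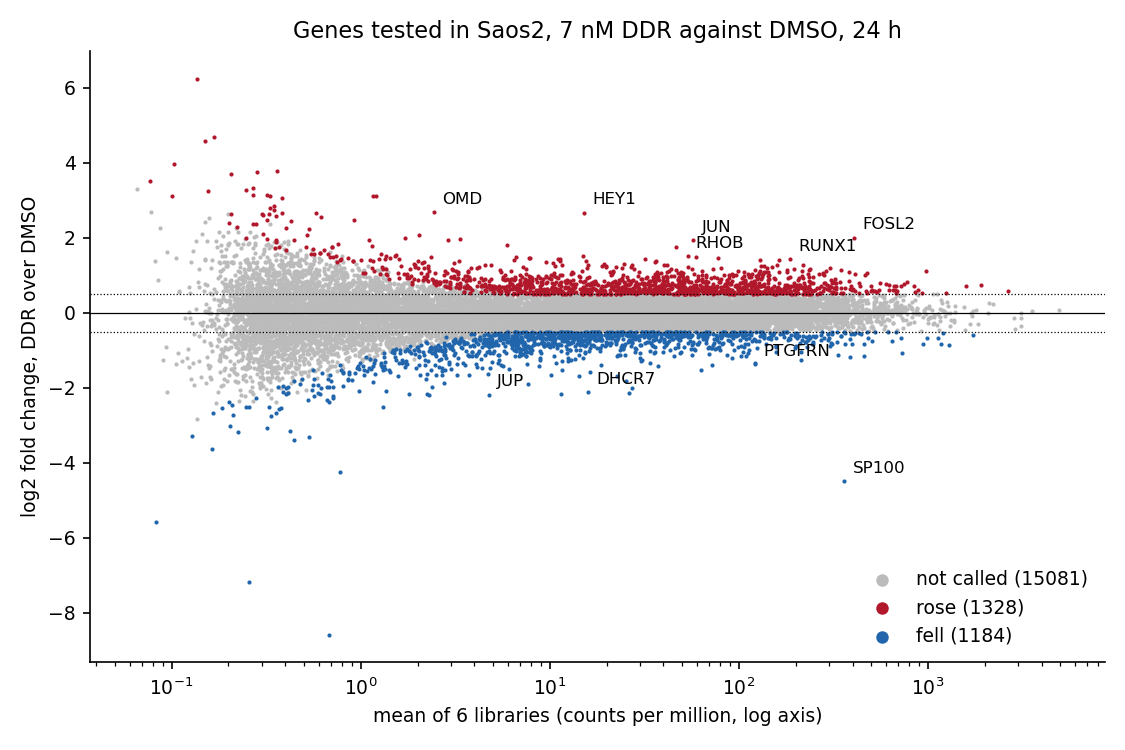
Log2 change of each gene tested, DDR over DMSO, against its mean level in the 6 libraries, with genes that rose and fell in color. Called genes lie at all levels, 1328 above and 1184 below, and most changes are under 2-fold.

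FOSL2 and JUN, whose proteins pair in the transcription factor AP-1, had the smallest p-values among genes that rose. FOSL2 (chr2:28615315-28640184 in GRCh37) had 168, 158 and 162 CPM in the DMSO libraries and 589, 717 and 647 CPM with DDR, a change of 2.00 ± 0.08 (95% interval 1.84 to 2.16, adjusted p = 4.6e-13). JUN (chr1:59242517-59249720) had 24.8, 21.6 and 25.1 CPM with DMSO and 77.1, 102 and 95.3 CPM with DDR, a change of 1.94 ± 0.10 (adjusted p = 5.3e-11). In both genes every DDR library is above every DMSO library by more than 2-fold. JUNB, a further AP-1 subunit, had 24.0, 22.2 and 18.3 CPM with DMSO and 32.3, 53.7 and 33.6 CPM with DDR and rose by 0.89 ± 0.15, with the highest value in DDR replicate 2. JDP2, a repressor in the same family, rose by 0.69 ± 0.21, and this call was lost without DMSO replicate 2 (0.64) or without DDR replicate 2 (0.47). Of 10 AP-1 genes measured, 4 rose and 1 fell. The gene that fell is FOS, the classical partner of JUN, at −0.58 ± 0.20. The count that fell was 0 without DMSO replicate 1, DMSO replicate 2 or DDR replicate 1 or with the GC trend removed, and 2 without DMSO replicate 3, so FOS is not a firm call.

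Genes that mitogens switch on within minutes did not follow JUN as a group. EGR1, a zinc finger factor of this kind, had 36.3, 52.2 and 39.5 CPM with DMSO and 9.03, 10.4 and 9.59 CPM with DDR and fell by 2.14 on the log2 scale (SE 0.14, adjusted p = 8.0e-10). IER3, which modulates ERK signaling, fell (−0.83 ± 0.14), whereas IER5L, a relative of the growth-response gene IER5, rose (0.97 ± 0.17). Of 17 immediate early genes measured, 3 rose and 4 fell, and the count that fell was 2 without DMSO replicate 2 or without DDR replicate 3. Among 9 dual-specificity phosphatases, which switch off MAP kinases, DUSP16 alone rose: it had 25.3, 24.5 and 23.9 CPM with DMSO and 55.1, 60.4 and 62.3 CPM with DDR (1.27 ± 0.08). That count of 1 was 2 without DDR replicate 2 or with the GC trend removed. SPRED1, an inhibitor of RAS to ERK signaling, had 30.4, 29.0 and 32.7 CPM with DMSO and 60.3, 68.5 and 64.9 CPM with DDR (1.07 ± 0.09). Both DUSP16 and SPRED1 were higher in every DDR library than in any DMSO library. SPRED1 stands in a list of 13 ERK feedback genes, of which 2 rose and 3 fell, with a median change of −0.28. EPHA4, an ephrin receptor, rose (0.59 ± 0.09; 0.44 and not called with the GC trend removed), and the factors ETV1 (−1.12 ± 0.20) and ETV4 (−1.75 ± 0.56) and the inhibitor SPRY4 (−0.95 ± 0.27) fell. The count that fell was 1 without DMSO replicate 2.

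NOTCH signaling runs from ligands such as JAG1 through a cleaved receptor to Mastermind coactivators and the HEY and HES repressors. HEY1 had 3.91, 3.38 and 5.08 CPM with DMSO and 27.5, 27.8 and 23.5 CPM with DDR, a rise of 2.67 ± 0.14 (adjusted p = 5.9e-11). HEY2, a relative, had 1.45, 1.31 and 1.37 CPM with DMSO and 4.31, 5.79 and 5.99 CPM with DDR (1.96 ± 0.21). JAG1 (chr20:10618332-10654647) had 44.6, 37.3 and 41.9 CPM with DMSO and 109, 105 and 129 CPM with DDR (1.47 ± 0.10, adjusted p = 7.8e-10). Ligand and both HEY targets thus rose with groups well apart. Among coactivators, MAML2 went from 24.6 ± 2.38 to 49.5 ± 7.28 CPM (mean ± SD, n = 3), a rise of 1.01 ± 0.11. Of 23 NOTCH genes measured, 8 rose and 3 fell, with a median change of 0.23 beside −0.01 over all genes. The 8 include NOTCH2, MAML1, MAML3 and NUMB. The 3 that fell, HES6, NOTCH3 and ADAM10, were not called without DDR replicate 1, when the count was 0. HES6 is a repressor, NOTCH3 a receptor and ADAM10 a protease that cleaves NOTCH receptors.

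**Figure D2:**
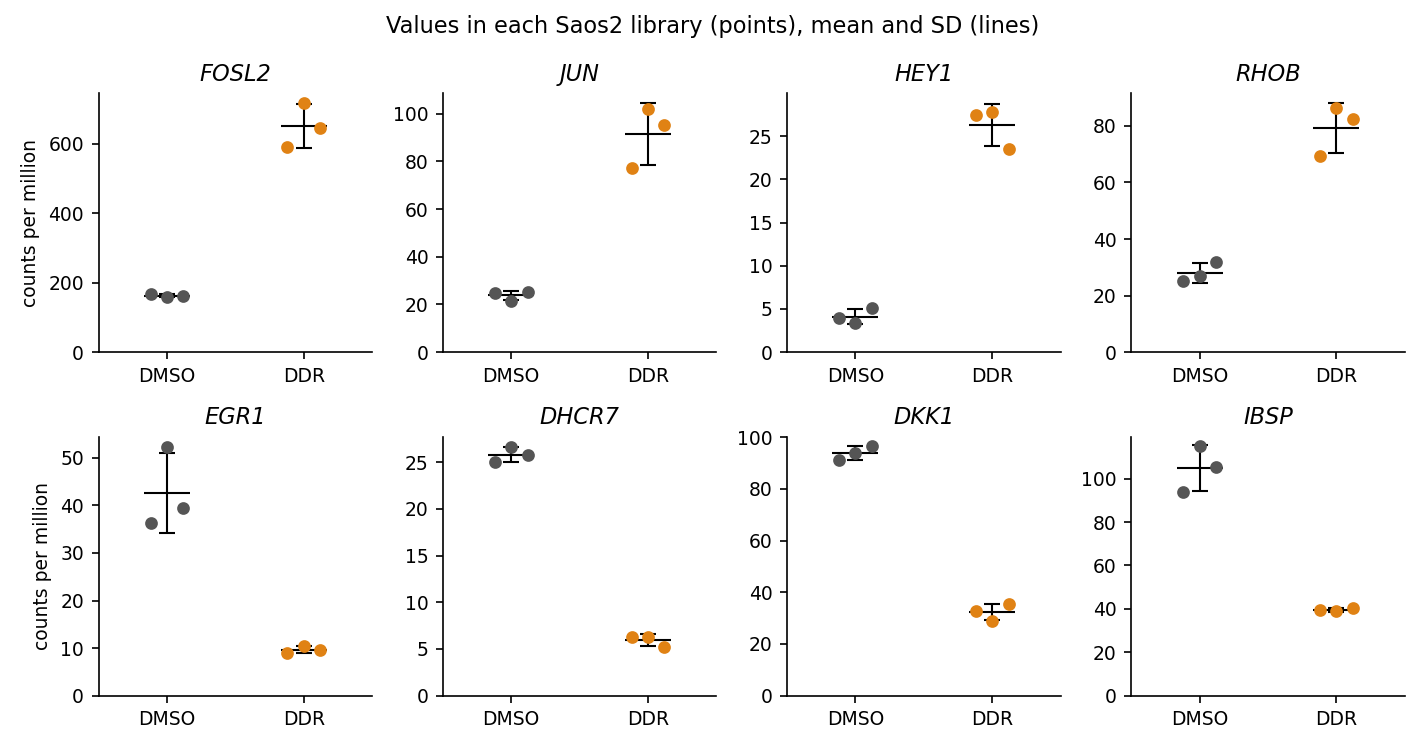
Level of 8 genes in each of 3 DMSO and 3 DDR libraries (points), in TMM-scaled CPM on a linear axis from 0, with the mean and SD as lines. The groups do not overlap in any of them: FOSL2, JUN, HEY1 and RHOB are higher with DDR, and EGR1, DHCR7, DKK1 and IBSP are lower.

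RHOB, a small GTPase of endosomes and actin that cells induce under stress, had 25.0, 26.8 and 31.8 CPM with DMSO and 69.4, 86.2 and 82.6 CPM with DDR (1.51 ± 0.10, adjusted p = 7.9e-10). Its close relative RHOA had 456, 502 and 557 CPM with DMSO and 502, 554 and 558 CPM with DDR, so the groups overlap (0.09 ± 0.08, 95% interval −0.07 to 0.25). RHOU, an atypical family member, had 3.81, 4.49 and 4.16 CPM with DMSO and 11.2, 11.0 and 12.1 CPM with DDR (1.46 ± 0.14). RND3, which opposes contraction by inhibiting ROCK1, went from 54.4 ± 5.20 to 87.6 ± 11.4 CPM (0.69 ± 0.09). ARHGAP5, a GTPase-activating protein, had 244, 269 and 298 CPM with DMSO and 542, 518 and 603 CPM with DDR (1.04 ± 0.08). The kinase ROCK2, which drives contraction, had 116, 122 and 146 CPM with DMSO and 235, 238 and 266 CPM with DDR (0.95 ± 0.09). An activator of contraction and an inhibitor of it are thus both among the genes that rose. VCL, the focal adhesion protein vinculin, fell instead (−0.63 ± 0.08). Its exons overlap AP3M1 on the other strand, whose reads may be counted with it.

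Entry into the cell cycle is governed by cyclin D with CDK6 or its relative and by inhibitors of those kinases. CDK6 had 7.42, 7.16 and 8.69 CPM with DMSO and 19.4, 21.8 and 25.5 CPM with DDR (1.52 ± 0.13, adjusted p = 2.8e-08). Inhibitors rose as well: CDKN2B went from 28.2 ± 1.29 to 51.3 ± 5.85 CPM (0.86 ± 0.10) and CDKN1B, which encodes p27, from 43.8 ± 3.90 to 72.0 ± 5.49 CPM (0.72 ± 0.09). CCND1, cyclin D1, was the fourth of 23 genes of this stage to rise (0.89 ± 0.16). E2F1, the activator of DNA synthesis genes, was the single gene called lower (−0.73 ± 0.13), and with the GC trend removed its change was −0.47 and no gene of the list fell. Without DDR replicate 2 the count was 2. Of 40 DNA replication genes, 8 fell and the others were not called, with a median change of −0.23. They include MCM7, MCM5 and MCM2 of the replicative helicase, the S phase enzyme TK1, and the licensing factor CDT1. The count was 4 without DDR replicate 3 and 1 with the GC trend removed, so it rests on that library and on the treatment of GC content. In bulk RNA, fewer cells in S phase and less RNA per cell cannot be told apart. Of 36 genes of mitosis, AURKB (−0.70 ± 0.13), NDC80 (−0.58 ± 0.09) and BIRC5 (−0.57 ± 0.07) fell. That share of 8.33% is near the 8.32% of all protein-coding genes that fell. AURKB and NDC80 act where chromosomes attach to the spindle, and BIRC5, which encodes survivin, was at −0.50 and not called with the GC trend removed. In that list 1 gene rose without DMSO replicate 3.

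**Figure D3:**
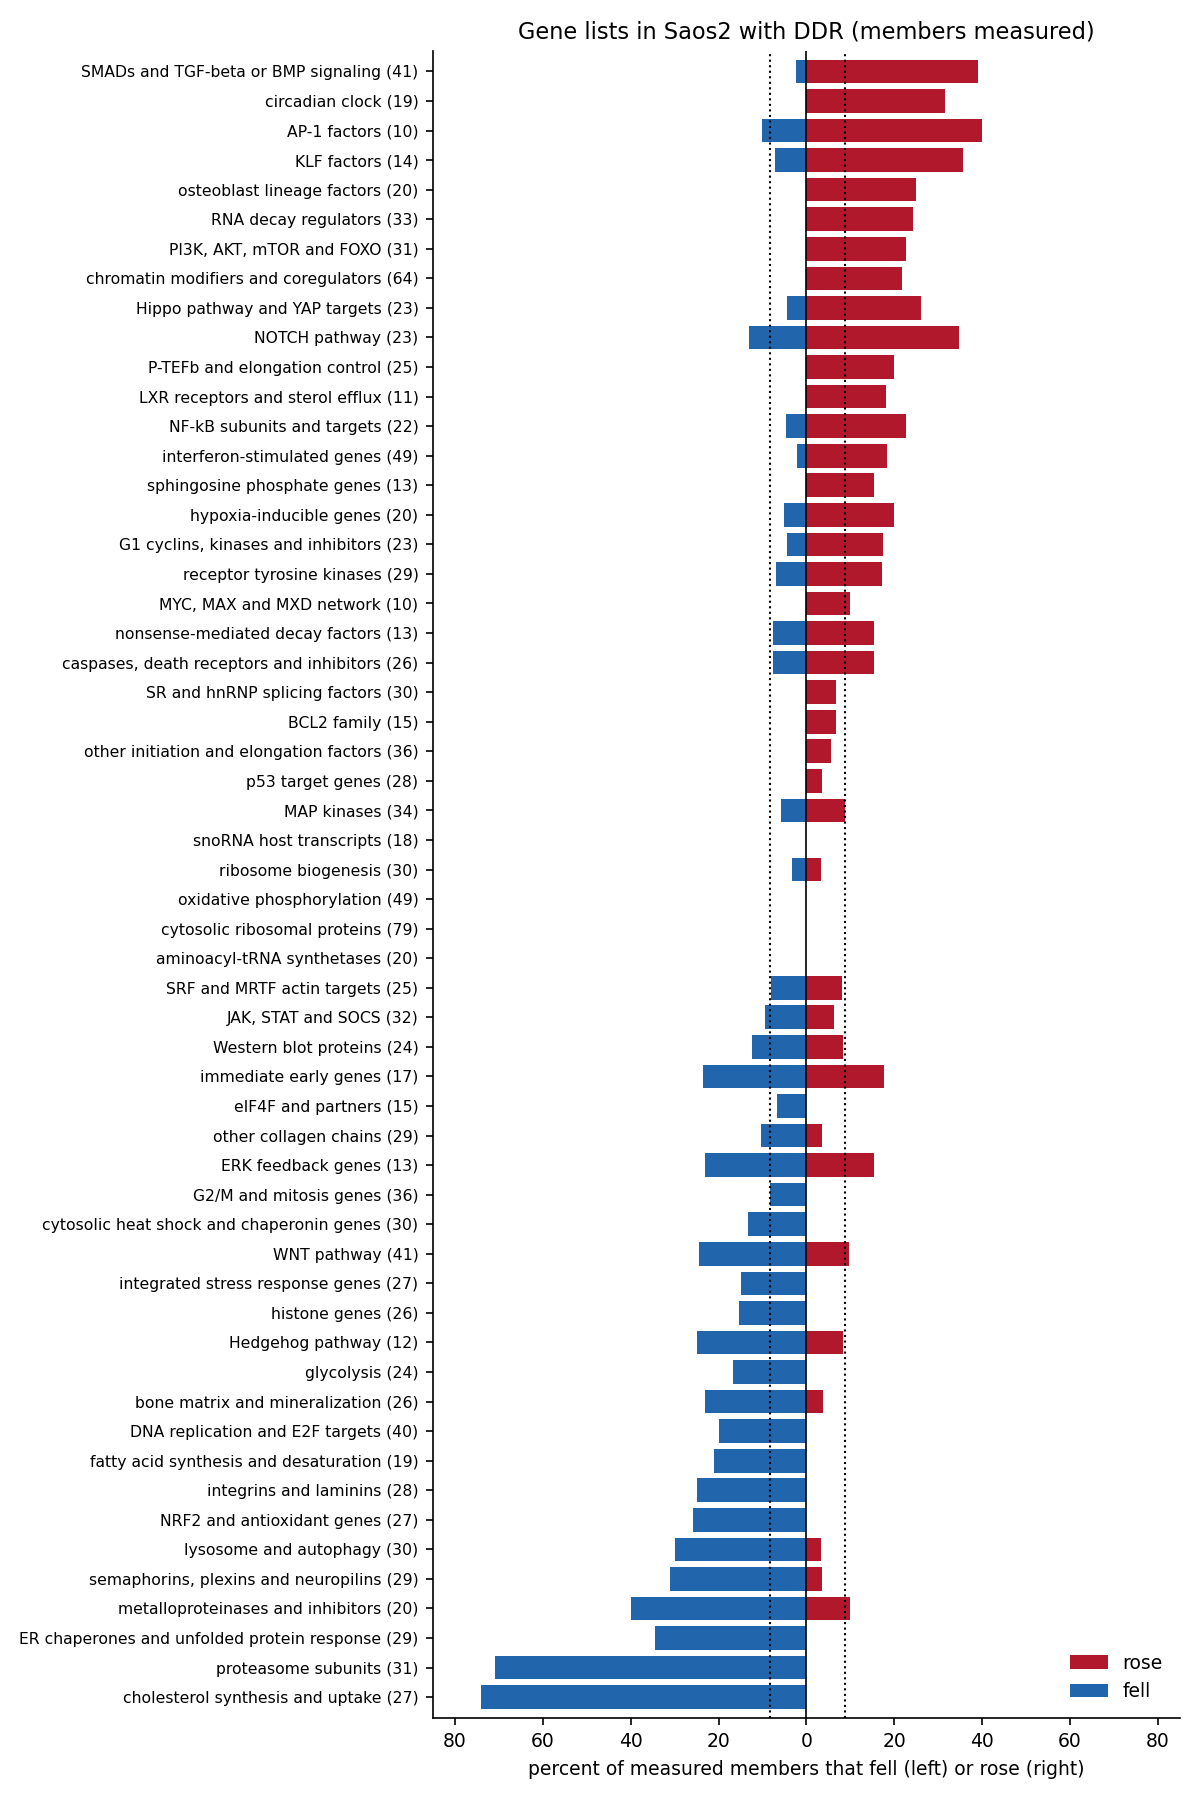
Percent of measured members that fell (bars to the left) or rose (to the right) in gene lists of at least 10 measured genes (number in brackets), with dotted lines at the shares of protein-coding genes, 8.77% rose and 8.32% fell. The cholesterol and proteasome lists have the highest shares of members that fell, 20 of 27 and 22 of 31.

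Cholesterol synthesis is a chain of enzymes under the transcription factor SREBF2, which sterols hold back through INSIG1. Of 27 genes of synthesis and uptake measured, 20 fell and the other 7 did not pass, with a median change of −0.81. DHCR7 (chr11:71139239-71163914), the last enzyme of the main branch, had 25.0, 26.6 and 25.8 CPM with DMSO and 6.34, 6.27 and 5.20 CPM with DDR (−2.12 ± 0.15, adjusted p = 1.4e-09). INSIG1 had 123, 132 and 129.5 CPM with DMSO and 56.4, 58.9 and 52.0 CPM with DDR (−1.20 ± 0.08). Both are lower in all DDR libraries than in any DMSO library. SREBF2 itself fell (−0.99 ± 0.09), as did its relative SREBF1 (−0.69 ± 0.12). From the top of the chain, HMGCS1 (−0.74 ± 0.08) fell as well. MVK (−0.85 ± 0.19), MVD (−1.08 ± 0.18), FDFT1 (−0.86 ± 0.10), LSS (−0.88 ± 0.12), MSMO1 (−0.94 ± 0.08), NSDHL (−0.81 ± 0.11) and EBP (−0.81 ± 0.09), which act in that order, fell too, so genes called lower stand early, midway and late in the chain. The count was 22 without DDR replicate 2, 19 with the GC trend removed and 20 with total-count scaling.

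Genes of unsaturated fatty acid synthesis moved the same way. SCD, the desaturase that makes oleate, had 951, 1046 and 978 CPM with DMSO and 448, 503 and 477 CPM with DDR (−1.06 ± 0.08). FADS2, a desaturase of polyunsaturated fatty acids, had 316, 311 and 277 CPM with DMSO and 113, 147 and 115 CPM with DDR (−1.27 ± 0.09), and its neighbor FADS1 went from 317 ± 13.9 to 179 ± 8.74 CPM (−0.83 ± 0.07). Exons of FADS1 and FADS2 overlap on opposite strands, so their counts may not be separate. With FASN, the fatty acid synthase (−0.67 ± 0.13), 4 of 19 genes fell and the others were not called. ABCA1, which exports cholesterol from cells and which oxysterol receptors induce, went the other way, with 22.7, 25.2 and 25.3 CPM in DMSO libraries and 46.0, 46.9 and 49.4 CPM with DDR (0.96 ± 0.09). The count of sterol efflux genes that rose was 2 of 11. Of the 21 cholesterol genes with a RefSeq promoter (GRCh38.p14, 250 bases before to 50 after the start), 1 holds the sterol element TCACNCCAC and 16, or 76.2%, hold CCAAT on either strand. These letters are in 1.39% and 39.7% of all promoters of that length.

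The 26S proteasome degrades proteins tagged with ubiquitin. Its 20S core stacks rings of alpha and catalytic beta subunits, and its 19S cap uses ATPases to unfold substrates. Of 31 subunit genes measured, 22 fell and the other 9 did not pass, with a median change of −0.59. All 7 beta ring genes fell (median −0.69, range −0.93 to −0.59), as did 3 of 7 alpha ring genes (median −0.45), 5 of 6 ATPases (median −0.56) and 7 of 11 other cap subunits (median −0.73). PSMB4 of the beta ring had 268, 259.5 and 252 CPM with DMSO and 122, 158 and 130.3 CPM with DDR (−0.93 ± 0.08, adjusted p = 3.8e-08). PSMD11 of the cap had 204, 198 and 213 CPM with DMSO and 103, 109.8 and 115 CPM with DDR (−0.91 ± 0.07). PSMC1, an ATPase, had 99.3, 104 and 115 CPM with DMSO and 52.4, 54.5 and 53.3 CPM with DDR (−0.99 ± 0.08), though its exons overlap NRDE2 on the other strand. The DMSO and DDR values of all 3 are well apart. PSMA2 of the alpha ring shows the other end of the list, with 13.9, 14.1 and 11.8 CPM in DMSO libraries and 14.9, 11.1 and 13.2 CPM with DDR (−0.02 ± 0.15). Its level is far below those of PSMB4, PSMD11 and PSMC1, and whether it holds all reads of PSMA2 was not tested. The count of subunits that fell was 20 without DDR replicate 2, 20 with the GC trend removed and 23 with total-count scaling.

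NFE2L1 encodes the transcription factor that induces proteasome genes when proteasome activity is short. It is made in the endoplasmic reticulum, drawn out by the ATPase VCP with its cofactors NPLOC4 and UFD1 and activated by the protease DDI2. These genes were chosen after the values of the subunits were seen, except NFE2L1, which also stands in the antioxidant list. NFE2L1 (chr17:46125691-46138907) had 301, 279.6 and 288 CPM with DMSO and 128, 159.9 and 131 CPM with DDR (−1.05 ± 0.08, adjusted p = 8.4e-09). VCP had 378, 417 and 397 CPM with DMSO and 204, 239 and 198 CPM with DDR (−0.89 ± 0.08). UFD1L went from 117 ± 5.86 to 75.8 ± 8.31 CPM (−0.63 ± 0.09) and NPLOC4 from 418 ± 30.4 to 274 ± 16.4 CPM (−0.61 ± 0.07), and NPLOC4 was at −0.49 and not called with the GC trend removed. DDI2 went the other way, with 142, 148 and 144 CPM in DMSO libraries and 239, 260.2 and 248 CPM with DDR (0.78 ± 0.07). Factor and extraction machinery fell while the protease rose. POMP, the chaperone that assembles the core, changed by −0.46 ± 0.08, short of the fold threshold, although its level went from 71.7 ± 3.74 to 52.0 ± 1.56 CPM and its groups do not overlap. The immunoproteasome subunit PSMB8, which replaces a beta subunit in inflamed cells, overlapped between groups, at 11.8, 11.9 and 13.4 CPM with DMSO and 9.53, 15.2 and 11.6 CPM with DDR (−0.03 ± 0.15, 95% interval −0.35 to 0.29). PSMB9, another of these subunits, was called higher, with 2.13, 2.77 and 2.64 CPM in DMSO libraries and 3.90, 5.72 and 2.96 CPM with DDR (0.73 ± 0.25), a call lost without DMSO replicate 1 (0.61), DMSO replicate 2 (0.79), DDR replicate 1 (0.78) or DDR replicate 2 (0.44).

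NFE2L1 and its relative NFE2L2 bind antioxidant response elements. The letters TGACNNNGC, searched on both strands, are in 7 of 26 proteasome promoters (26.9%), 21.9% of promoters of genes that fell, 17.5% of those that rose, 19.3% of those not called and 16.1% of all. The matches are shown, from RefSeq in GRCh38.p14, for 4 subunits that fell, with the motif in capitals on the strand of the gene. PSMD12 and PSMD3 are cap subunits (changes of −0.52 ± 0.08 and −0.91 ± 0.10), PSMB3 is in the beta ring (−0.64 ± 0.10) and PSMD1 is a cap scaffold (−0.73 ± 0.07).
PSMD3 (chr17:39980761-39980788, plus strand): cccctttgtTGACTCGGCcatcggcctg
PSMB3 (chr17:38752628-38752655, plus strand): cctccgtttTGACTTTGCaaccaaacta
PSMD12 (chr17:67366724-67366751, minus strand): gacaaaaccTGACGCTGCaggctggagt
PSMD1 (chr2:231056897-231056916, plus strand): ggaggcgacTGACTGAGCag
PSMA4 (−0.40 ± 0.07) and PSMC5 (−0.47) have a match as well and were not called. A match and a call thus do not always go together. The match of PSMC4, which fell (−0.58), and a further match in PSMD3 are not printed.

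**Figure D4:**
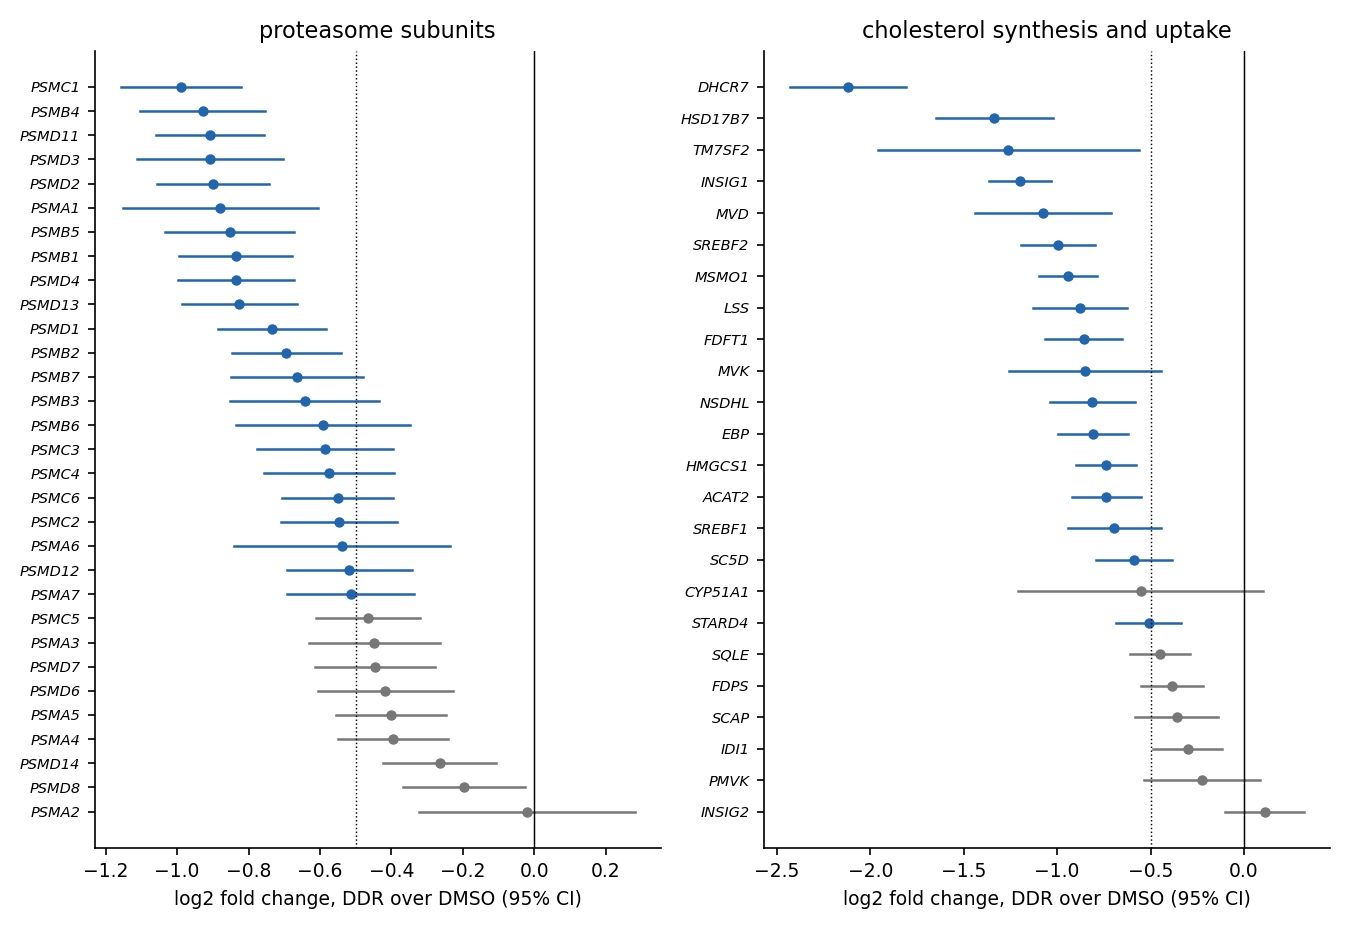
Log2 change (point) with 95% interval (line) of the 31 proteasome subunits and 24 of the 27 cholesterol genes measured, ordered by change, with genes that fell in blue, genes not called in gray and a dotted line at −0.5. All points but that of INSIG2 lie below 0, and called genes reach −0.99 among proteasome subunits and −2.12 among cholesterol genes.

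Chaperones of the endoplasmic reticulum fold secreted proteins, and the unfolded protein response induces them. Of 29 genes of these chaperones and this response, 10 fell and the other 19 did not pass. CALR, the lectin chaperone calreticulin, had 1521, 1448 and 1548 CPM with DMSO and 785, 866 and 875 CPM with DDR (−0.84 ± 0.08). PDIA4, which rearranges disulfide bonds, had 423, 416 and 409 CPM with DMSO and 229, 259 and 246 CPM with DDR (−0.77 ± 0.07). MANF, a secreted stress protein, went from 98.5 ± 5.59 to 50.8 ± 5.58 CPM (−0.95 ± 0.10), and XBP1, a transcription factor of the response, changed by −0.62 ± 0.08. Of 30 cytosolic heat shock and chaperonin genes 4 fell. Among them HSPA8, the constitutive HSP70, fell (−0.53 ± 0.07), a call lost without DMSO replicate 3 (−0.47). Stress-inducible HSPA1B had 17.0, 17.3 and 20.6 CPM with DMSO and 10.7, 10.4 and 12.4 CPM with DDR (−0.71 ± 0.14), which was −0.48 and not called with the GC trend removed. Of 27 integrated stress response genes, 4 fell, among them PHGDH of serine synthesis (−0.74 ± 0.10) and the cystine transporter SLC7A11 (−0.62 ± 0.09). The count was 7 without DDR replicate 2 and with total-count scaling, and up to 2 genes of this list rose without DMSO replicate 1, DMSO replicate 2, DDR replicate 1 or DDR replicate 3.

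Of 27 antioxidant genes and targets of NFE2L2, 7 fell. PIR, an iron-binding partner of NF-kB that NFE2L2 induces, had 40.0, 35.5 and 43.5 CPM with DMSO and 10.5, 11.5 and 11.6 CPM with DDR (−1.82 ± 0.12, adjusted p = 7.8e-10). PGD of the pentose phosphate pathway had 263, 273 and 274 CPM with DMSO and 148, 162 and 149 CPM with DDR (−0.82 ± 0.08), and TKT (−0.57 ± 0.10) of that pathway fell. SQSTM1, the autophagy receptor p62, went from 83.4 ± 8.73 to 50.9 ± 3.65 CPM (−0.71 ± 0.09), with exons that overlap MGAT4B and MRNIP on the other strand. NFE2L2 itself had 105, 121 and 134 CPM with DMSO and 128, 125 and 135 CPM with DDR, so its groups overlap (0.11 ± 0.08, 95% interval −0.06 to 0.28). A rise was called in this list without DMSO replicate 1 (2 genes), without DDR replicate 2 (1) and with the GC trend removed (1). Of 30 lysosome and autophagy genes 9 fell and 1 rose (2 without DMSO replicate 3 or with the GC trend removed). They include hydrolases of glycolipids, GLA (−0.86 ± 0.11) and NEU1 (−0.91 ± 0.12), each with DDR libraries below all DMSO libraries. LAPTM4B, a lysosomal membrane protein, had 526, 546 and 536 CPM with DMSO and 220.4, 245 and 249 CPM with DDR (−1.17 ± 0.07).

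TXNIP, which restrains glucose uptake and which the glucose-sensing MondoA induces, had 83.2, 89.9 and 94.1 CPM with DMSO and 230.1, 254 and 231 CPM with DDR (1.42 ± 0.07, adjusted p = 5.3e-11). Its arrestin-domain relatives ARRDC3 (1.08 ± 0.08) and ARRDC4 (0.62 ± 0.11) rose as well. These are the 3 of 8 genes of the list around TXNIP that rose. ARRDC1 (−0.78 ± 0.27), a further relative, and MLXIPL (−1.52 ± 0.48), the MondoA relative ChREBP, fell, and the list median was 0.03. The count that fell was 0 without DMSO replicate 2, without DDR replicate 3 or with the GC trend removed, and 1 without DMSO replicate 1, DDR replicate 1 or DDR replicate 2. Of 24 glycolysis genes 4 fell, among them the neuronal-type enolase ENO2 (−0.86 ± 0.14) and the glucose transporter SLC2A1 (−0.56 ± 0.11). SLC2A1 was at −0.47 and not called without DDR replicate 1 and at −0.48 with the GC trend removed. The count for glycolysis was 2 without DDR replicate 1 and 7 without DDR replicate 2.

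Bone matrix is laid down by osteoblasts as collagen and acidic proteins that bind mineral. IBSP, bone sialoprotein, had 94.0, 115 and 105 CPM with DMSO and 39.5, 38.8 and 40.6 CPM with DDR (−1.40 ± 0.09, adjusted p = 6.2e-10). SPP1, osteopontin, had 9.07, 11.8 and 10.3 CPM with DMSO and 4.08, 4.96 and 4.92 CPM with DDR (−1.16 ± 0.18), and MEPE, made by osteocytes, went from 37.2 ± 7.45 to 19.4 ± 2.97 CPM (−0.94 ± 0.14). Members of this family of acidic proteins were thus lower in every DDR library. OMD, a keratan sulfate proteoglycan of bone, had 0.936, 0.428 and 0.647 CPM with DMSO and 4.87, 3.00 and 4.82 CPM with DDR (2.68 ± 0.32), the largest rise among protein-coding genes that average 2 CPM or more and whose groups are separate. Of 26 matrix and mineral genes, 6 fell and 1 rose (2 without DDR replicate 3 or with the GC trend removed). Transcription factors of the osteoblast lineage moved differently, with 5 of 20 called higher. RUNX1 had 100.1, 102 and 104 CPM with DMSO and 262, 263 and 296 CPM with DDR (1.42 ± 0.08, adjusted p = 5.3e-11). SP7, which osteoblasts need to mature, had 147, 164 and 146 CPM with DMSO and 234, 302 and 232 CPM with DDR (0.75 ± 0.09). MEF2C (0.73 ± 0.08) and the homeobox gene ALX4 (0.71 ± 0.09) also rose, and MEF2C was at 0.49 and not called with the GC trend removed. SOX9, the factor that directs cartilage, had 56.7, 68.8 and 67.5 CPM with DMSO and 122, 125 and 144 CPM with DDR (1.02 ± 0.09), and SOX4 went from 543 ± 14.4 to 893 ± 70.3 CPM (0.72 ± 0.07).

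Secreted antagonists led the WNT genes that fell. DKK1, which blocks the WNT coreceptor, had 91.2, 93.7 and 96.7 CPM with DMSO and 32.6, 29.1 and 35.4 CPM with DDR (−1.54 ± 0.10, adjusted p = 4.6e-10). WIF1, which binds WNT proteins, had 15.9, 18.6 and 19.0 CPM with DMSO and 5.60, 9.55 and 6.75 CPM with DDR (−1.29 ± 0.17). LEF1, a nuclear partner of beta-catenin, had 16.5, 17.8 and 22.8 CPM with DMSO and 41.5, 39.1 and 41.1 CPM with DDR and rose (1.09 ± 0.11). Of 41 WNT genes, 10 fell, among them the antagonists DKK3, FRZB and SOST, and 4 rose. The count that rose was 2 with the GC trend removed and 2 with total-count scaling, and GSK3B (0.67 ± 0.08) was 0.46 and not called with the GC trend removed. Among Hedgehog genes SMO, the signaling receptor, had 49.0, 50.9 and 46.0 CPM with DMSO and 22.7, 28.4 and 19.1 CPM with DDR (−1.06 ± 0.12).

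Genes that remodel or grip the extracellular matrix were mostly lower where called. ADAMTS5, which cleaves aggrecan, had 55.7, 57.2 and 60.4 CPM with DMSO and 28.1, 27.7 and 31.2 CPM with DDR (−0.99 ± 0.10). TIMP2, an inhibitor of metalloproteinases, had 815, 812 and 823 CPM with DMSO and 459, 470.3 and 515 CPM with DDR (−0.76 ± 0.08). MMP17, a membrane-anchored protease, was low and fell (4.23, 4.91 and 3.88 CPM with DMSO and 1.32, 1.17 and 1.07 CPM with DDR, −1.87 ± 0.27). MMP2, a gelatinase, fell by 0.61 on the log2 scale (SE 0.09), and by 0.47, under the threshold, with the GC trend removed. Of 20 genes measured 8 fell and 2 rose, with a median of −0.51. Of 28 integrin and laminin genes 7 fell and the others were not called. ITGA5, which pairs with beta 1 to bind fibronectin, had 99.6, 93.7 and 88.1 CPM with DMSO and 45.3, 57.4 and 44.5 CPM with DDR (−0.93 ± 0.10). ITGA4 (−0.68 ± 0.08), whose exons overlap CERKL on the other strand, and ITGA10, a collagen receptor (−1.12 ± 0.13), fell as well. Of 29 semaphorin, plexin and neuropilin genes, which guide axons and vessels, 9 fell and 1 rose (2 without DMSO replicate 2, 4 without DDR replicate 1 and 3 without DDR replicate 2). COL12A1, a collagen chain found on the surface of fibrils, rose (0.74 ± 0.10). PTGFRN, a membrane partner of tetraspanins, had 174, 175 and 178 CPM with DMSO and 63.4, 70.6 and 69.8 CPM with DDR (−1.37 ± 0.08), the smallest p among genes that fell.

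SMAD proteins carry signals of TGF-beta and BMP receptors to the nucleus. Of 41 genes of these pathways 16 rose and TGFB1 fell, with a median of 0.36. SMAD3, used by TGF-beta, had 58.9, 54.5 and 57.7 CPM with DMSO and 83.2, 95.6 and 84.7 CPM with DDR (0.62 ± 0.08). SMAD1, used by BMPs, had 47.0, 54.1 and 51.6 CPM with DMSO and 75.3, 84.2 and 76.0 CPM with DDR (0.62 ± 0.09), and the inhibitory SMAD6 went from 31.4 ± 3.04 to 46.9 ± 4.19 CPM (0.58 ± 0.10). Activating and inhibitory SMADs rose alike. ID4, a target of BMP, had 32.9, 27.9 and 36.4 CPM with DMSO and 73.5, 76.7 and 78.0 CPM with DDR (1.23 ± 0.10), and FST, follistatin, which traps activin, 44.2, 44.5 and 44.7 CPM with DMSO and 87.4, 88.4 and 94.4 CPM with DDR (1.02 ± 0.08). The ligand gene TGFB1 had 399.6, 402 and 375 CPM with DMSO and 207, 247 and 216 CPM with DDR (−0.81 ± 0.08). The receptor gene BMPR2 rose by 0.58 ± 0.09, but was at 0.48 and not called without DDR replicate 3 and at 0.29 with the GC trend removed, and SMAD5 (0.74 ± 0.07) was at 0.49 with the GC trend removed. Of the 11 genes that the study names from its RNA sequencing, 10 were called higher here, NFE2L2 being the exception. That list was chosen on these samples and is not independent evidence of a direction.

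Of 49 interferon-stimulated genes, 9 rose (18.4%, beside 8.77% of protein-coding genes) and 1 fell, with a median change of 0.18. SAMD9L, which restricts viruses and growth, had 14.2, 12.9 and 13.6 CPM with DMSO and 32.5, 25.4 and 36.4 CPM with DDR (1.22 ± 0.12). EPSTI1 (0.95 ± 0.15), HERC6, a ligase of the HERC family (0.80 ± 0.14), and PARP9 (0.62 ± 0.08), whose exons overlap DTX3L on the other strand, rose as well. IFIT2, which inhibits translation of viral RNA, rose by 0.56 ± 0.13, a call lost without DMSO replicate 1 (0.42), without DDR replicate 3 (0.49) or with the GC trend removed. The count that rose was 4 without DMSO replicate 1. The gene called lower, SP100 of nuclear bodies, had 28.0, 2026 and 25.6 CPM with DMSO and 29.9, 31.1 and 31.8 CPM with DDR, so its change rests on DMSO replicate 2 and was 0.20 without it. The count that fell was 0 without that library, 2 without DMSO replicate 3 and 3 without DDR replicate 2.

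Survival genes moved in part. BCL2, which blocks release of cytochrome c, had 15.7, 16.2 and 16.7 CPM with DMSO and 34.1, 40.5 and 39.3 CPM with DDR (1.22 ± 0.10, adjusted p = 9.0e-09). It was the single gene of 15 in its family called higher (2 were without DDR replicate 3 or with the GC trend removed). That share of 6.67% is under the 8.77% of all protein-coding genes that rose. BAX, the killer relative of BCL2, had 27.6, 26.4 and 24.6 CPM with DMSO and 15.8, 26.2 and 14.4 CPM with DDR, so DDR replicate 2 sits inside the DMSO range. Its change of −0.48 ± 0.16 was short of the threshold, and it was called at −0.81 without DDR replicate 2, at −0.53 without DMSO replicate 3 and at −0.51 with the replicate number as a block. BIRC2, an inhibitor of cell death by TNF, had 67.8, 70.4 and 77.1 CPM with DMSO and 129, 139 and 157 CPM with DDR (0.98 ± 0.08). XIAP, which inhibits caspases, rose (0.73 ± 0.07) and was at 0.48 and not called with the GC trend removed, while NFKB1, an NF-kB subunit, went from 21.9 ± 0.840 to 37.5 ± 5.08 CPM (0.78 ± 0.10). Of 26 death pathway genes 4 rose (15.4%) and 2 fell (7.69%), beside 8.77% and 8.32% of protein-coding genes. The count that rose was 1 with the GC trend removed, and the count that fell was 1 without DMSO replicate 1, DDR replicate 1 or DDR replicate 2.

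Coregulators and chromatin enzymes were called in the upward direction, 14 of 64, with a median of 0.22; 1 fell without DMSO replicate 1, 1 without DMSO replicate 3 and 2 without DDR replicate 2. EP300, a histone acetyltransferase, had 178, 181 and 194 CPM with DMSO and 398, 419 and 444 CPM with DDR (1.19 ± 0.08, adjusted p = 4.6e-10). BCOR, a corepressor of polycomb type, had 177, 182 and 184 CPM with DMSO and 347, 403 and 383 CPM with DDR (1.06 ± 0.07). NRIP1, which represses nuclear receptors, had 202, 223 and 228 CPM with DMSO and 448, 448 and 532 CPM with DDR (1.13 ± 0.09). Each more than doubled its mean level. HEXIM1, which holds the elongation kinase P-TEFb inactive, had 32.1, 29.0 and 33.0 CPM with DMSO and 63.0, 74.5 and 63.9 CPM with DDR (1.10 ± 0.09). CDK12 (0.92 ± 0.08) and CDK13 (0.86 ± 0.08), kinases of elongating RNA polymerase, rose too, and 5 of 25 genes of elongation control were called higher.

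Factors that shorten or destroy mRNA were also called upward, in 8 of 33 genes. TOB1, which recruits deadenylases, had 36.8, 38.5 and 42.9 CPM with DMSO and 66.3, 64.7 and 76.6 CPM with DDR (0.81 ± 0.09). TNRC6C, a scaffold of microRNA silencing, had 159, 162 and 161 CPM with DMSO and 243, 271 and 256 CPM with DDR (0.67 ± 0.07), with exons that overlap TMC6. Among growth signaling genes, IRS1, an adaptor of the insulin receptor, had 106, 112 and 126 CPM with DMSO and 231, 257 and 246 CPM with DDR (1.10 ± 0.08). PIK3R1, the regulatory subunit of PI3K, had 125, 153 and 154 CPM with DMSO and 259.8, 267 and 293 CPM with DDR (0.93 ± 0.08). Of 31 genes around PI3K 7 rose (4 fell without DDR replicate 2, and 1 without DMSO replicate 2, Roc replicate 1 or Roc replicate 3 or with the replicate block). In the Hippo pathway YAP1, the coactivator, had 36.1, 31.4 and 31.5 CPM with DMSO and 59.2, 64.7 and 74.3 CPM with DDR (1.00 ± 0.10). LATS2, the kinase that restrains it, had 26.4, 25.3 and 23.5 CPM with DMSO and 48.1, 54.9 and 53.5 CPM with DDR (1.06 ± 0.09), so activator and inhibitor rose together, and 6 of 23 genes rose and 1 fell. Of 19 clock genes 6 rose, with a median of 0.41: the repressor NFIL3 went from 21.1 ± 2.54 to 39.4 ± 3.89 CPM (0.90 ± 0.10) and the nuclear receptor NR1D2 from 88.4 ± 6.54 to 145 ± 16.1 CPM (0.71 ± 0.08). IL7R, an interleukin receptor subunit, had 169.6, 165 and 190.0 CPM with DMSO and 72.3, 62.3 and 73.9 CPM with DDR (−1.33 ± 0.09).

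The target of the compound and its partners changed little at the mRNA level. EIF4A1 had 14.8, 12.6 and 13.4 CPM with DMSO and 12.9, 10.8 and 12.2 CPM with DDR (−0.18 ± 0.13, 95% interval −0.45 to 0.09). EIF4A2 had 379, 358 and 361 CPM with DMSO and 457, 408 and 446 CPM with DDR (0.26 ± 0.07, 95% interval 0.11 to 0.41), so its groups are apart but its change is short of the fold threshold. Exons of EIF4A2 overlap RFC4 on the other strand. Overlaps with genes on the same strand are not listed here. Whether the low count of EIF4A1 beside EIF4A2 holds all its reads was not tested. EIF4G1, the scaffold, had 788, 791 and 797 CPM with DMSO and 535, 648 and 559 CPM with DDR (−0.45 ± 0.08), and it was called without DDR replicate 2 (−0.55). EIF4EBP1, which holds eIF4E inactive, was the single gene of 15 called lower (−0.52 ± 0.16), and not without DMSO replicate 1, DDR replicate 1 or DDR replicate 3 or with the GC trend removed. Of 79 ribosomal protein genes 0 were called by edgeR, DESeq2 or limma-voom, with 3 higher and 9 lower at an unadjusted p under 0.05. By edgeR 1 fell without DMSO replicate 3 and 1 without DDR replicate 2. EIF1, which guards start codon choice, had 155, 163 and 162 CPM with DMSO and 227, 266 and 244 CPM with DDR and rose (0.62 ± 0.07).

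The transcripts that rose were longer, richer in A and T and had longer UTRs than those that fell. Among 13034 protein-coding genes matched to an annotated transcript, the median 5′ UTR was 316 bases in genes that rose, 136 in those not called and 117 in those that fell. The median 3′ UTR was 2775, 1305 and 899 bases in the same order, and median GC content was 42.9%, 47.8% and 57.1%. Across genes, which are not independent replicates, the log2 change had a Spearman coefficient of −0.35 with GC content and 0.25 with transcript length. Library GC trends differ among replicates of a group, as given above, and their part in this relation was not tested. The median GC content of genes that rose minus that of genes that fell was −14.2 percentage points, and −15.1 within the middle tercile of expression. With the trend removed from each library, which takes out such a relation by construction, 1097 genes rose and 945 fell.

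Rocaglates clamp eIF4A on purines, so runs of A and G in the 5′ UTR are of interest here. A run of 12 or more purines was present in 37.2% of genes that rose, 13.6% of those not called and 10.7% of those that fell. Long UTRs hold long runs more often, and among UTRs of 200 to 400 bases the shares were 33.2%, 21.8% and 15.7% (95% Wilson intervals 28.8% to 37.8%, 20.2% to 23.5% and 11.3% to 21.3%). With the longest transcript of each gene they were 33.1%, 22.4% and 21.2%, so the intervals of genes that fell (16.4% to 26.9%) and genes not called (20.9% to 24.0%) then overlap, and over all UTRs the shares were 39.7%, 18.9% and 17.1%. The purine share of the UTR was nearly level, with medians of 51.7%, 51.1% and 51.5%. The longest run, in capitals with flanking bases and GRCh37 positions, is shown for 4 genes in either direction, taken by smallest p among those whose run lies within an exon and is short enough to print. FOSL2 and HEY1, which rose, and PTGFRN and LAPTM4B, which fell, had smaller p-values than some genes shown and are left out. Because the choice depends on run length, the runs shown do not compare the groups. JUN, TXNIP, RUNX1 and CDC14A rose, and DKK1, TMEM2, IBSP and PIR fell.
JUN (chr1:59249260-59249272, minus strand): acgcAAGAGAAGAAGGAcgtg
TXNIP (chr1:145438553-145438565, plus strand): aattGGGGGAAAGAAGGcttt
RUNX1 (chr21:36421217-36421225, minus strand): cttcAGAAGAGGGtgca
CDC14A (chr1:100818171-100818179, plus strand): agccGGGGGAAGActtt
DKK1 (chr10:54074082-54074087, plus strand): ccgcAGGGGGctcc
TMEM2 (chr9:74383365-74383374, minus strand): ccatGGAGAGGAGAtctg
IBSP (chr4:88720718-88720725, plus strand): gggcAGAGGAAAtact
PIR (chrX:15511432-15511435, minus strand): ccgcGAAGcgct
JUN and TXNIP carry runs of 13 purines, in UTRs of 977 and 313 bases, and RUNX1 and CDC14A runs of 9 in 194 and 449 bases. The runs of DKK1, TMEM2, IBSP and PIR span 6, 10, 8 and 4 bases in UTRs of 154, 169, 94 and 196. The run of TMEM2, a membrane hyaluronidase gene that fell (−1.13 ± 0.07), is thus longer than those of RUNX1 and CDC14A. AUUUA pentamers, the core of AU-rich decay elements, had medians of 7, 2 and 1 per 3′ UTR in genes that rose, were not called and fell. These medians were not adjusted for the length of the 3′ UTR. The overlapping nonamer of such elements was in 14.8%, 10.5% and 6.43% of 3′ UTRs of 2000 to 4000 bases. The 95% Wilson intervals were 11.6% to 18.9%, 9.30% to 11.7% and 3.63% to 11.2%, so genes not called overlap either group. In 3′ UTRs of 1000 to 2000 bases the shares were 7.76%, 5.94% and 3.49%, and all intervals overlap.

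**Figure D5:**
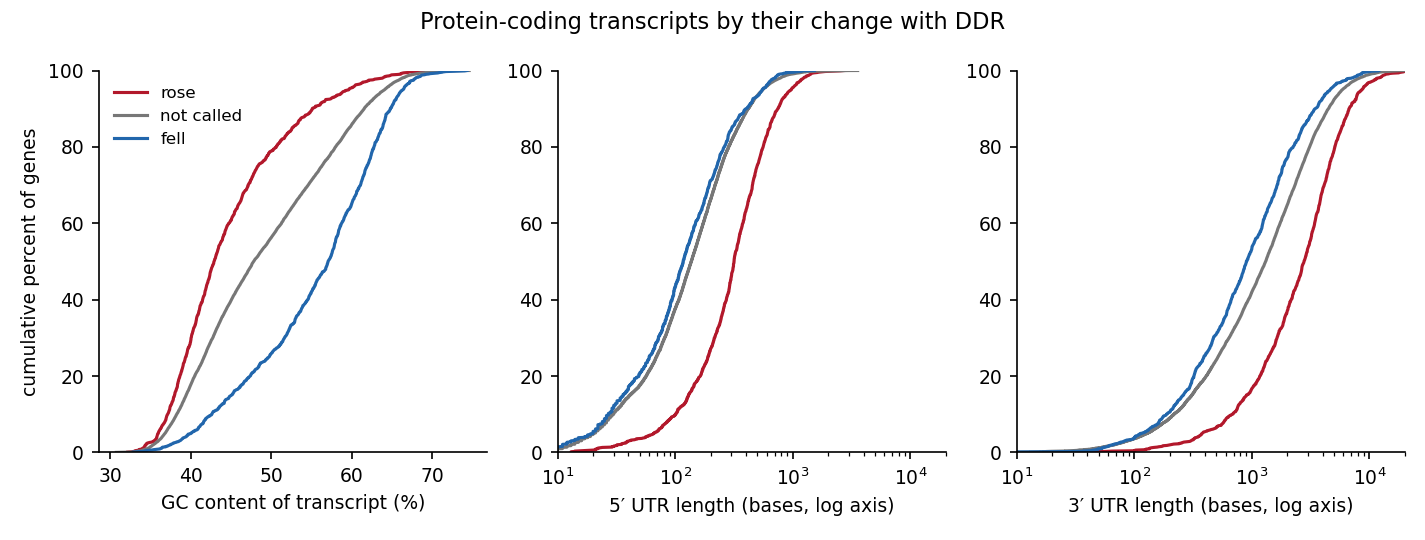
Cumulative percent of protein-coding genes that rose, were not called or fell, by GC content of the transcript and by length of the 5′ and 3′ UTR (log axes, UTRs of at least 1 base). The curve of genes that rose lies at the lowest GC content (median 42.9%) and the longest UTRs (medians 316 and 2775 bases).

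Of 4425 genes that are not protein-coding, 173 rose and 88 fell. The count that fell was 47 without DMSO replicate 1 and 52 without DMSO replicate 2. PWAR5, a transcript of the imprinted Prader-Willi region, had 21.3, 24.5 and 24.6 CPM with DMSO and 55.2, 51.8 and 62.8 CPM with DDR (1.27 ± 0.13). LUCAT1, a long noncoding RNA that stress and NFE2L2 induce, had 3.10, 3.75 and 3.33 CPM with DMSO and 1.29, 0.793 and 1.17 CPM with DDR (−1.64 ± 0.30). Whether counting used strand is not known here, so reads of a gene and its antisense partner may not be separated. SRGAP2C, a truncated copy of SRGAP2 found in humans, had 29.1, 31.5 and 33.8 CPM with DMSO and 81.8, 83.6 and 98.9 CPM with DDR (1.48 ± 0.09). The counts of SRGAP2 (0.71 ± 0.08), SRGAP2B (0.94 ± 0.09) and SRGAP2C are uncertain, because the copies are nearly identical and share reads.

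The response of Saos2 to DDR was then set against that of MG-63, with the difference of log2 changes tested as an interaction in a single edgeR fit over 18842 genes. Each line has its own DMSO libraries, doses differed (7 and 5 nM) and the tables were annotated separately. The change was higher in Saos2 for 1311 genes (6.96%) and lower for 1189 (6.31%). Without MG-63 DDR replicate 2 these counts were 951 and 729. For RHOB no difference was called: it changed by 1.52 ± 0.10 in Saos2 and 1.76 ± 0.13 in MG-63 (difference −0.24 ± 0.16, adjusted p = 0.36). JUN and FOSL2 rose more in Saos2 by 0.53 ± 0.14 and 0.57 ± 0.11 (adjusted p = 9.7e-04 to 0.0093). The AP-1 genes as a list did not follow them. Of 10 in both tables, the change of 2 was higher and of 4 lower in Saos2. Their median change was 0.10 in Saos2 and 1.30 in MG-63, where 7 rose. For JUN the difference was under the threshold without Saos2 DMSO replicate 2 (0.46), Saos2 DDR replicate 2 (0.44), Saos2 DDR replicate 3 (0.49) or MG-63 DDR replicate 1 (0.46), and for FOSL2 without Saos2 DDR replicate 2 (0.50).

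NFE2L1 fell in Saos2, and the difference between the lines was called. In MG-63 it had 218 and 228 CPM with DMSO and 217 and 254 CPM with DDR (0.08 ± 0.11, difference −1.11 ± 0.14, adjusted p = 1.3e-05). Of 30 proteasome genes in both tables, the change of 7 was lower in Saos2 (4 without Saos2 DDR replicate 1), and the median change was −0.56 in Saos2 and −0.23 in MG-63. VCP differed in the same direction (−0.86 ± 0.12, adjusted p = 3.0e-05). DKK1, the WNT antagonist, changed by −1.52 ± 0.08 and −0.23 ± 0.09 (difference −1.28 ± 0.12). Interferon-stimulated genes had a median change of 0.20 in Saos2 and 0.63 in MG-63, where 25 of 49 rose. The change of 20 of them was lower in Saos2 by the test of the difference. Of 19 clock genes the change of 7 was higher in Saos2, and of 4 without MG-63 DMSO replicate 2 (medians 0.42 and −0.09). SOX9 rose in Saos2 and fell in MG-63, where it had 19.2 and 20.1 CPM with DMSO and 4.66 and 7.65 CPM with DDR (difference 2.71 ± 0.19, adjusted p = 4.5e-09). EGR1 changed by −2.13 ± 0.18 in Saos2 and −0.31 ± 0.28 in MG-63 (difference −1.81 ± 0.33).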

How the data were processed

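Counts per gene were deposited by the authors as raw counts, without normalization. The authors made TruSeq stranded mRNA libraries read as 100-bp pairs, removed mitochondrial, ribosomal and transfer RNA reads with Bowtie2 2.5.1, aligned to GRCh37/hg19 with STAR 2.7.3a and counted with HTSeq 0.11.2 (tools per the submitters' processing notes and the methods). HTSeq's strand option and the gene annotation release are not stated in the labels, the methods or the file headers, so overlapping genes on opposite strands are named beside the values. Overlaps were taken between all exons of protein-coding transcripts, UTRs included. Overlaps between genes on the same strand are not named. The other 55 per-sample columns (normalized counts and FPKM) were not used, nor were the authors' fold changes and p-values in the tables of differential expression.

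The 9 Saos2 libraries were fitted as 3 groups (DMSO, DDR, Roc) in R 4.3.3 with edgeR 4.0.16: filterByExpr, TMM, glmQLFit and glmQLFTest, adjusted by Benjamini-Hochberg over 17593 genes. Every adjusted p is from edgeR unless another tool is named. The SE is the log2 change over the square root of F. Total counts per DMSO library were 29394515, 38466960 and 39787425, and per DDR library 33407647, 28838167 and 32626439. Values therefore rest on about 30 counts or more per library at 1 CPM, and all intervals cover the spread between these libraries. The difference between lines was fitted over 15 libraries as 6 groups, with genes matched by Ensembl ID (52684 in both tables). Transcript features used GENCODE v44 lifted to GRCh37, and promoters RefSeq in GRCh38.p14.

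The genes named are the 12 largest changes each way, the 10 smallest p-values each way, 5 noncoding genes each way, 4 per gene list and 4 per direction of the difference between lines, with the genes of the study's Western blots and those it names. Members, the 64 gene lists and the rule were chosen with earlier results of these data known. FOS, CCND1, ARRDC1, MLXIPL, ETV4, SPRY4, TKT, XBP1, FASN, PSMA2, PSMA4, PSMB3, PSMD1, PSMD3, PSMD12, HMGCS1, MVK, MVD, FDFT1, LSS, MSMO1, NSDHL, EBP, SREBF1, SREBF2, RHOA and the NFE2L1 route were added after their values were seen. Some genes and gene lists are not reported here.

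Replicate numbers were checked as pairs: deviations of DMSO and DDR libraries of the same number correlated at 0.15, 0.25 and 0.53 over 10899 genes with at least 5 CPM. All are over 0.1, which is the bar set here for a pairing, so the number was tried as a block. The fit reported has no block, and every SE, interval and p printed is unpaired unless the block is named. The pairing comes from the data and not from the labels, and DMSO replicate 1 correlated more with DDR replicate 2 (0.24). In simulated data for this comparison the test recovered 65.7%, 94.0% and 100% of genes changed by log2 0.5, 1 and 2, with 15 false calls among 17593 genes. These counts use the adjusted p alone, without the fold threshold of a call. The changed genes were drawn from those above a floor of expression. The simulated libraries had neither GC trends nor pairing, so the rates may not hold for the real libraries. Alternatives were DESeq2 1.42.0, limma-voom 3.58.1, other scalings, filters, thresholds and gene sets, the replicate block, each library left out, and, chosen after seeing the data, removal of the trend with GC content and transcript length in each library.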

Additional observations from a re-analysis of the deposited data

Results flagged for a closer look

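The response to DDR differed between Saos2 and MG-63 for 8 named genes, by the edgeR test of the difference (adjusted p = 4.0e-10 to 2.0e-07). They are the 4 each way with the smallest p, so they were picked for this difference.

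SOX9, the cartilage factor, changed by 1.03 ± 0.11 in Saos2 and −1.68 ± 0.16 in MG-63, a difference of 2.71 ± 0.19. NAV3, a microtubule-binding protein, changed by 0.51 ± 0.09 and −1.31 ± 0.11 (difference 1.81 ± 0.14), and SEMA6D, a semaphorin, by 0.52 ± 0.08 and −1.19 ± 0.10 (difference 1.71 ± 0.13). In the fit of Saos2 alone NAV3 (0.49 ± 0.09) and SEMA6D (0.50 ± 0.08) were short of the fold threshold of 0.5. DSEL, an epimerase of dermatan sulfate, changed by 1.29 ± 0.08 in Saos2, where it had 93.1, 91.0 and 94.2 CPM with DMSO and 218, 208 and 246 CPM with DDR, and by −0.17 ± 0.09 in MG-63 (difference 1.46 ± 0.12).

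SLC44A2, a choline transporter-like protein, changed by −0.25 ± 0.09 in Saos2 and 2.32 ± 0.13 in MG-63 (difference −2.56 ± 0.16). IFIT3 and IFIT2, induced by interferon, changed by 0.08 ± 0.10 and 0.58 ± 0.10 in Saos2 and by 1.96 ± 0.12 and 2.23 ± 0.11 in MG-63, differences of −1.88 ± 0.15 and −1.66 ± 0.15. RUNX3, a relative of the bone factor RUNX2, changed by −0.36 ± 0.08 and 1.02 ± 0.10 (difference −1.39 ± 0.13). The doses and the annotations differ between the lines, and their part in these differences was not tested.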

How the results depend on the processing

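Counts of called genes depend most on the fold threshold. With no minimum fold change 4883 genes were called (2614 rose, 2269 fell), with a minimum log2 change of 1 there were 555 (262 and 293), and with glmTreat against 0.5 there were 651 (402 and 249). Members of the lists called numbered 352, and 678, 76 and 140 in the same order. These follow from how each threshold is built. Under the other tools, scalings, filters, gene sets and left-out libraries, the total stayed within 1.5 times 2512, from 2055 without DMSO replicate 1 to 3058 without DDR replicate 2. The share that rose fell below 50% with total counts (44.4%), upper quartile scaling (1108 rose and 1411 fell), a minimum log2 change of 1 (47.2%), no expression filter (49.8%), DMSO and DDR libraries alone (49.6%) and without DDR replicate 2 (44.9%). Genes lower in Saos2 than in MG-63 numbered 729 to 1754 with a library left out.

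With the replicate number as a block 2643 genes were called (1352 rose and 1291 fell), and 2092 with the GC trend removed as well. Of the named genes the block alone changed the calls of TRA2A (0.50, lost) and BAX (−0.51, gained) and no other. Removal of the GC and length trend without the block left 2042 genes and 305 members of the lists called. Of 313 named genes in that fit, 43 lost their call, 13 gained a call and 3 reversed direction.

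Reversed directions were found among genes near 0 and SP100. With a library left out, AKT1 ranged from −0.27 to 0.050, PTK2 from −0.048 to 0.040, IFIT3 from −0.10 to 0.16, PSMB8 from −0.24 to 0.12, RHOC from −0.20 to 0.16 and SP100 from −5.07 to 0.20. With the GC trend removed, without and with the block, AKT1 was 0.18 and 0.18, PTK2 −0.10 and −0.10, and PSMB8 0.12 and 0.11. With total counts and upper quartile scaling, PTK2 was −0.029 and −0.028, and RHOC −0.0057 and −0.0058. The cause was not tested, except for SP100, whose value in DMSO replicate 2 sets it.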

Other observations

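Sphingosine phosphate receptors steer cell migration. S1PR3 went from 5.93 ± 0.161 to 14.9 ± 3.68 CPM (mean ± SD, n = 3; 1.33 ± 0.18), and S1PR1 from 1.77 ± 0.808 to 4.44 ± 0.902 CPM (1.32 ± 0.26). Of 13 genes around this lipid 2 rose, both receptors, with every DDR library above every DMSO library. The count that fell was 1 without DMSO replicate 3 and 2 without DDR replicate 2.

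Several other genes with large changes stand in none of the lists given above. GUCY1A2, a subunit of the nitric oxide receptor guanylate cyclase, had 17.0, 22.5 and 24.6 CPM with DMSO and 65.5, 71.1 and 79.3 CPM with DDR (1.75 ± 0.11). CDC14A, a phosphatase that opposes cyclin-dependent kinases, had 69.3, 69.5 and 74.2 CPM with DMSO and 186, 172 and 211 CPM with DDR (1.42 ± 0.08). Among genes that fell, NLRP1, an inflammasome sensor, had 51.1, 43.3 and 37.5 CPM with DMSO and 12.3, 10.2 and 9.93 CPM with DDR (−2.02 ± 0.14). JUP, plakoglobin of cell junctions, had 7.88, 7.66 and 7.81 CPM with DMSO and 1.26, 2.24 and 1.67 CPM with DDR (−2.18 ± 0.24). KIAA0319 had 19.4, 16.5 and 20.5 CPM with DMSO and 4.19, 4.20 and 4.16 CPM with DDR (−2.17 ± 0.17). SLC30A1, which exports zinc from cells, rose, with 82.3, 91.6 and 96.8 CPM in DMSO libraries and 171, 160.3 and 192 CPM with DDR (0.95 ± 0.08). In each of these genes the groups do not overlap.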
